A study of Mus musculus with 16 samples.

Results

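Regions of accessible chromatin that appeared in skeletal muscle of both fed and fasting mice, and in no other tissue, were described here. A region of the fed muscle list was taken when its q-value was under 0.01 and it overlapped a region of the fasting muscle list. The overlap was at least 1 bp, and the fasting region also had q under 0.01. No deposited peak of the other 14 libraries, at any q, was allowed to touch the fed region. This left 14685 muscle-private regions, which were 9.22% of the 159194 fed muscle regions with q under 0.01 and 12.2% of the 119925 that were found in both muscle lists (both-state regions). The other 105240 both-state regions were overlapped by at least 1 other tissue and are called shared below. Over the 16 libraries, 2640607 regions had q under 0.01. Several lists of other tissues stopped at a stricter q, fed brown adipose at -log10 q of 5.26 and fed white adipose at 4.22. Weaker peaks of those libraries were not listed and could not exclude a region. The regions were selected on the peaks of the same lists, so their presence in muscle, their absence elsewhere and their q-values are descriptions, not findings.

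Open chromatin was mapped by ATAC-seq, in which a transposase cuts where DNA is exposed, in skeletal muscle, heart, liver, spleen, kidney, lung and both brown and white adipose tissue. The mice were C57BL/6 males, in a fed or a fasting state. The fasting mice had been without food for 24 h, all had arrived at 12 weeks of age, and 10 to 14 days of acclimatisation followed. Each library was made from 1 tissue of 1 state, pooled from 3 mice, so there was 1 library per tissue and state and no difference between states has a replicate check. All tissues of a state came from the same mice, and the fibre types of the muscle sampled are not given in the sources used here.

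Skeletal muscle fibres are long cells with many nuclei, whose contractile, calcium-handling and fuel genes are switched on by the myogenic basic helix-loop-helix factors of the MyoD family, which bind E-boxes, together with MEF2 factors and their partners. Many regulatory regions of a differentiated tissue lie away from gene starts, inside introns or between genes. Heart muscle shares much of the sarcomere and uses MEF2 factors too, but lacks the MyoD family. In whole tissue, fewer cells of a type and less accessibility per cell cannot be told apart.

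The strongest of the regions are shown by their summit base with 50 bases on each side, named by the protein-coding gene with the nearest start, on the plus strand of GRCm38. Capitals mark matches, on either strand, to CAGCTG (an E-box), MEF2, CATTCC (TEAD factors), TGANTCA (AP-1) and CArG (SRF). The first 4 are the regions with the highest mean rank of both states.
Aldh1a1, chr19:20549600-20549700: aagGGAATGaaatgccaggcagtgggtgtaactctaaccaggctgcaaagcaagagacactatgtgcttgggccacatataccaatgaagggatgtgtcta
Kcnma1, chr14:23839684-23839784: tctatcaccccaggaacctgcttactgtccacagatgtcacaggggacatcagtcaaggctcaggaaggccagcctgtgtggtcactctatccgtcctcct
Gm9747, chr1:81973689-81973789: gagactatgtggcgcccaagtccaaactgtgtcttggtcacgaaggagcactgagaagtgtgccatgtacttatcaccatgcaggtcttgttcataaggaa
Aknad1, chr3:108739220-108739320: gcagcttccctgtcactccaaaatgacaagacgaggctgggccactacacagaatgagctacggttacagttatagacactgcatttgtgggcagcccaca

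Of these 4, only the window near Aldh1a1 held a match. The next windows come from the strongest private region of genes of the muscle programme, namely Myod1 (the myogenic master factor), Myh4 (the fast IIB myosin heavy chain), Ryr1 (the calcium release channel of the sarcoplasmic reticulum), Chrna1 (a subunit of the acetylcholine receptor of the synapse) and Fbxo32 (the ubiquitin ligase atrogin-1). Mef2c and Tnnt3 also had private regions, but their strongest summits lay on untranslated exons, whose sequence is not printed. Myog had none.
Myod1, chr7:46353397-46353497: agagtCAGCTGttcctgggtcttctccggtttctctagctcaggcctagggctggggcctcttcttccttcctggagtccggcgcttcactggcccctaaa
Myh4, chr11:67236131-67236231: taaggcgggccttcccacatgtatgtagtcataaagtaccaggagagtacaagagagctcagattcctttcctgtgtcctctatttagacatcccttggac
Ryr1, chr7:29123845-29123945: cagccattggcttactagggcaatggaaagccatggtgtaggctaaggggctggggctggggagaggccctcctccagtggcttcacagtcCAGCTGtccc
Chrna1, chr2:73579372-73579472: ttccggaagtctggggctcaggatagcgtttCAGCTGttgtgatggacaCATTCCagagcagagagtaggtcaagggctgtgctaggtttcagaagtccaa
Fbxo32, chr15:58219872-58219972: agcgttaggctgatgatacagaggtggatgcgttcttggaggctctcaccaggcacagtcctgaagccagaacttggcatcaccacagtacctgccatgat

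Windows near Myod1, Ryr1 and Chrna1 held CAGCTG, and those near Myh4 and Fbxo32 held none of these motifs in the bases shown. Within 100 bp of the summit, the Myh4 region held CATTCC and the Fbxo32 region CAGCTG. Since the sets private to muscle and heart had the highest shares of MEF2 matches among the 8 tissues, 3 strong regions of muscle-list genes with a MEF2 match within 50 bases of the summit are shown as well. They were chosen after their values were seen. The genes encode the muscle sodium channel (Scn4a), skeletal actin (Acta1) and the AMP deaminase of muscle (Ampd1).
Scn4a, chr11:106341194-106341294: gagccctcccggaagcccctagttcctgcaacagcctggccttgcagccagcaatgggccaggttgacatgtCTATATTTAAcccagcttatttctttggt
Acta1, chr8:123895737-123895837: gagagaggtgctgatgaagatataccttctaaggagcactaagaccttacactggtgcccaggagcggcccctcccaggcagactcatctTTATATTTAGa
Ampd1, chr3:103073897-103073997: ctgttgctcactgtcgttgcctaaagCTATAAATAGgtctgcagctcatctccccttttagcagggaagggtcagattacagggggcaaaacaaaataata

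The last 3 windows are the strongest with CAGCTG and MEF2 matches in the same window, also chosen after their values were seen. The nearest genes were Bmp2, a bone morphogenetic ligand, Tpm2, which encodes beta-tropomyosin, and Efcab6.
Bmp2, chr2:133529609-133529709: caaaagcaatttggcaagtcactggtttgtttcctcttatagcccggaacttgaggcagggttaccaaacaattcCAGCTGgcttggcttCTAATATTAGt
Tpm2, chr4:43521623-43521723: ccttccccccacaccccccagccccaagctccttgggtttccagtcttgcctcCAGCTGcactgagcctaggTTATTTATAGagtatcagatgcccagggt
Efcab6, chr15:83967899-83967999: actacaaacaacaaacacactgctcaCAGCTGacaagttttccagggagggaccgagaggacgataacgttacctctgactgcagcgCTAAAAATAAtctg

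The private regions lay away from gene starts. Of the 14685 regions, 3040 (20.7%, 95% exact interval 20.05 to 21.37) had their summit within 3000 bp of an annotated start, beside 37.1% of all both-state regions and 39.3% (39.1 to 39.6) of the shared ones. The median distance to a start was 10191 bp for private and 5640 bp for shared regions. Within 1 kb of a start lay 8.31% of the private and 27.6% of the shared regions, whereas 40.1% and 30.9% lay 10 to 50 kb away. The intervals cover counting error only. This position was not particular to muscle, because 20.3% (18.9 to 21.9) of the 2763 regions private to heart and 21.8% (20.7 to 22.9) of the 5448 private to brown adipose were as near to a start, with median distances of 11595 and 11209 bp.

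**Figure D1:**
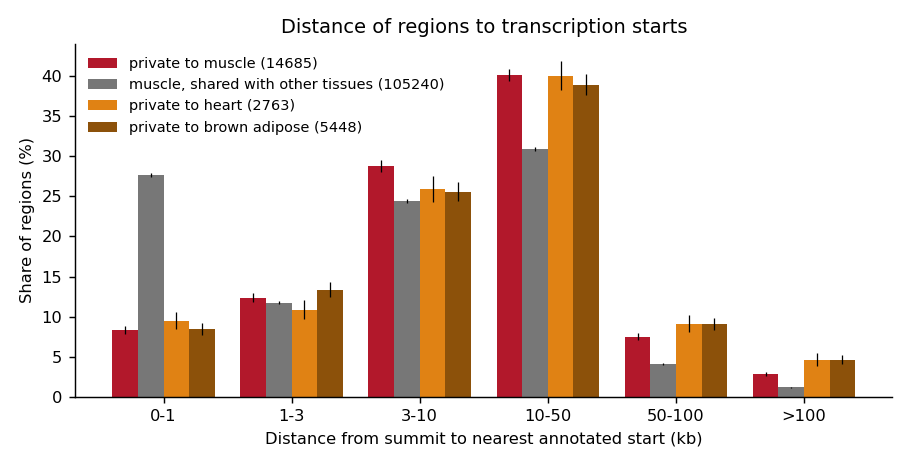
Share of regions (y axis, percent) by the distance from summit to the nearest annotated start (x axis, kb) for 4 sets, with 95% exact binomial intervals as error bars and the number of regions in the legend. Muscle-private regions hold 8.31% of their number within 1 kb of a start, against 27.6% of shared muscle regions, and resemble the sets private to heart and brown adipose.

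Introns held 63.6% of the private summits and 53.5% of the shared ones. Intergenic sequence held 28.1% and 31.1%, exons outside untranslated parts 5.54% and 7.36%, and untranslated exons 2.73% and 8.09%. The intron share was higher than in the sets private to heart (54.9%) and brown adipose (53.7%). The private regions were also narrower, with a median width of 189 bp against 260 bp for shared regions. Of the private regions 71.4% had 1 summit, against 49.8%. The rule drops any region that a peak of another tissue touches, and a wide region is touched more easily. How far the rule itself sets these differences was not tested. In private regions the median GC content within 100 bp of the summit was 47.3%, against 52.2% in shared ones. On average 14.5% of those bases were repeat-masked, against 9.52%.

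Being private to muscle did not mean being far from open chromatin of other tissues. The median gap from a private region to the nearest peak of another tissue was 495 bp, 10157 regions (69.2%) had such a peak within 1000 bp, and only 218 (1.48%) had none within 10000 bp. Of the both-state regions, 36678 (30.6%) were overlapped by all 7 other tissues and 13202 (11.01%) by 1. Heart overlapped most of them, 81836 (68.2%), and spleen fewest, 61270 (51.1%). Heart was also the tissue that alone kept the largest number from being private, 5218 regions (4.35%), whereas each of the other 6 alone kept out between 1000 and 1621.

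The private regions were of middling strength. Strength is given as a rank, the percentile of a region's p-value within its own list, where 100 is the strongest, since the deposited values are not scaled between libraries. The median rank was 56.7 in the fed and 56.1 in the fasting list, whereas shared regions had 68.2 and 69.6. The median fold enrichment over expected tags was 3.08 and 3.29. Among both-state regions the share that was private fell with the fed rank, from 19.0% at ranks up to 25 to 1.04% (95 of 9122) above rank 95. Above rank 90 in both states lay 378 private regions, and above rank 95 in both 48.

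The strongest private region lay in an intron of Aldh1a1 (retinaldehyde dehydrogenase) at chr19:20549177-20549836, with rank 98.6 in fed and 99.3 in fasting muscle and fold enrichment of 25.9 and 25.5. The second lay in Kcnma1, the BK potassium channel, at chr14:23838966-23840011, with ranks 97.6 and 98.1 and fold enrichment of 11.8 and 13.4. The third, chr1:81973276-81974064, was intergenic, 131441 bp from any annotated start, with ranks 97.6 and 98.1. These 3 were high in both libraries. The fourth, chr3:108739054-108739500, was 388 bp from a start of Aknad1, with ranks 97.6 and 97.9 and fold enrichment of 20.4 and 22.5. The remaining 6 of the 10 strongest had their nearest protein-coding start at Opcml (a neural adhesion molecule), Paip2b, Ephb1 (an ephrin receptor), Kcnc4 (a potassium channel), Prrx1 (a mesenchymal homeobox factor) and Ikzf2 (the zinc finger factor Helios). Their ranks ran from 95.9 to 98.1 in fed and from 96.2 to 97.6 in fasting muscle. None of the 10 nearest genes was in the muscle lists, and only the region near Paip2b held CAGCTG within 100 bp of its summit.

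At the threshold, the weakest private region in the fed list was chr10:33290687-33290792 in an intron of Trdn, with -log10 q of 2.0002. The nearest one left out, chr17:65317889-65317998, had 1.99968, and 1409 regions of the fed list below the threshold met the other conditions.

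Fed and fasting ranks were alike for many of the regions, but some moved far. In 6398 of the 14685 regions (43.6%) the rank was higher in fasting, close to the 44.1% of shared regions, and the median change from fed to fasting was -2.21 points, with quartiles of -14.9 and 9.36. For 6310 regions (43.0%) the 2 ranks were within 10 points. The rank was over 25 points higher in fasting in 1605 (10.9%) and over 25 points lower in 1964 (13.4%). Fed regions that overlapped the same fasting region could each be given its rank, so these counts are not all of separate fasting regions. Across regions the Pearson correlation of the 2 ranks was 0.567 for private and 0.716 for shared regions, as a description over regions of the same 2 libraries. The fasting library was the deeper, with a genome background of 10.6 expected tags against 6.39 in the fed one, and both lists stopped at the limit on list length, the fasting one at -log10 q of 2.80 and the fed one at 1.58.

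The widths of the matched regions moved with these changes. Where the rank was over 25 points higher in fasting, the median width was 130 bp in fed and 402 bp in fasting muscle, and in 64.5% of cases the fasting region was more than 2 times wider. Where it was over 25 points lower, the widths were 182 and 150 bp, and 3.56% had such a wider fasting region. Among the 11642 regions (79.3%) whose 2 widths were within 2 times of each other, 37.5% ranked higher in fasting, 569 were over 25 points higher and 1625 over 25 points lower, and the correlation was 0.699. The part of depth, list length and width in the rank changes was not tested.

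The 5 largest rises set fed regions of 73 to 382 bp against fasting ones of 808 to 1205 bp. Near Cdh22, a cadherin, the rank was 13.5 in fed and 97.3 in fasting muscle at chr2:165153648-165153720, and the fasting region was 1040 bp wide against 73 bp. The others lay near Btbd16 (13.6 and 96.2), Rilpl1 (13.5 and 95.98), Zfp474 (14.04 and 95.97) and Slc16a1, the monocarboxylate transporter MCT1 (15.2 and 95.4), with fasting regions of 808 to 1205 bp against 85 to 382 bp. The 5 largest falls set fed regions of 193 to 540 bp against fasting ones of 82 to 483 bp. At chr9:58027360-58027769 near Ccdc33 the rank was 81.9 in fed and 2.44 in fasting muscle, with 59 summit tags where 6.39 were expected and 26 where 10.6 were expected. The region near Ipo8, a nuclear import receptor, had ranks 87.8 and 8.47, with 85 tags against 27. In Mlxipl, which encodes the glucose-responsive factor ChREBP, the ranks were 73.9 and 0.424, with 59 tags against 29. The other falls lay near Myh8, the perinatal myosin (76.9 and 3.92), and Arhgap26 (77.1 and 5.19). With 1 library per state these are differences between libraries.

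**Figure D2:**
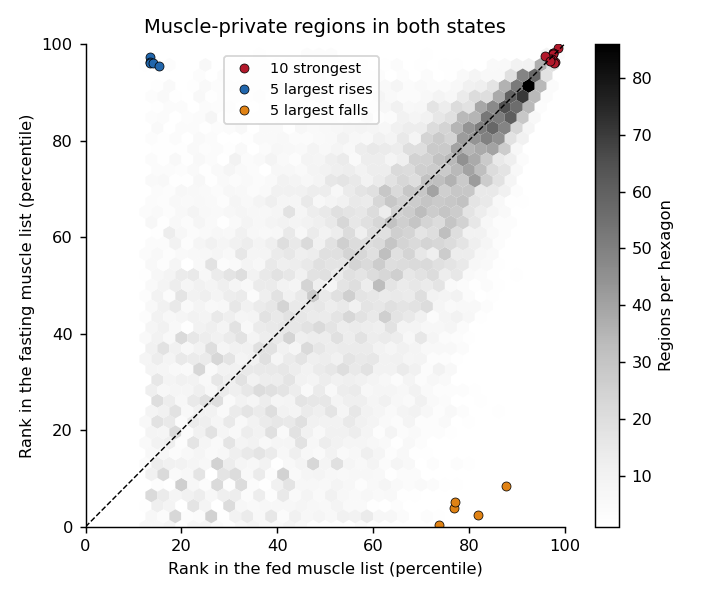
Rank in the fed (x axis) and the fasting muscle list (y axis, both percentiles of the list) for the 14685 muscle-private regions, counted in hexagons, with the 10 strongest, the 5 largest rises and the 5 largest falls as coloured points and equality as a dashed line. The cloud narrows at high ranks, where the 10 strongest regions sit above 95 in both states.

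Private regions lay in runs. For 4002 of them (27.3%, 26.5 to 27.98) the nearest region of the fed list was also private, whereas this held for 7.07% (6.92 to 7.23) of shared regions. Joining private regions with gaps of at most 12.5 kb gave 9399 clusters, of which 6618 were single regions (45.1% of the regions). Another 276 clusters had 5 or more and held 2010 regions (13.7%), and 34 had 10 or more and held 585.

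The largest clusters lay over long genes and runs of neighbouring genes. The first, chr2:52125116-52336485, held 65 private regions in 211370 bp, 59 of them nearest to Neb, which encodes the thin-filament ruler nebulin, and 6 to Rif1. Of the 112 both-state regions in its span, 58.0% were private, beside 12.2% over the genome. Clusters are runs of private regions and were picked by their number, so high private shares in their spans are built in. The second, chr2:76764414-76951555, held 62 regions over Ttn, the gene of the giant spring titin, where 43.4% of 143 both-state regions were private. The third lay on the X chromosome at chrX:102558095-102646014, with 26 regions at Phka1, a regulatory subunit of muscle phosphorylase kinase, and Hdac8, and all but 6 of its 32 both-state regions were private. The fourth, chr13:32702474-32756307, held 25 regions over Mylk4, a myosin light chain kinase family member, and the fifth, chr18:44298082-44367235, held 24 over Myot (myotilin, a Z-disc protein), Dcp2 and Npy6r, in which 64.1% and 61.5% of the both-state regions were private. The fifth place was a tie, because a cluster over Rbfox1, a splicing regulator, at chr16:7271416-7345825 also held 24 regions, which were 88.9% of the 27 both-state regions in its span. The regions in the other 5 clusters were of middling strength, with mean ranks of 40.1 to 53.4 per cluster. In the Neb cluster the strongest region had a mean rank of 94.7.

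**Figure D3:**
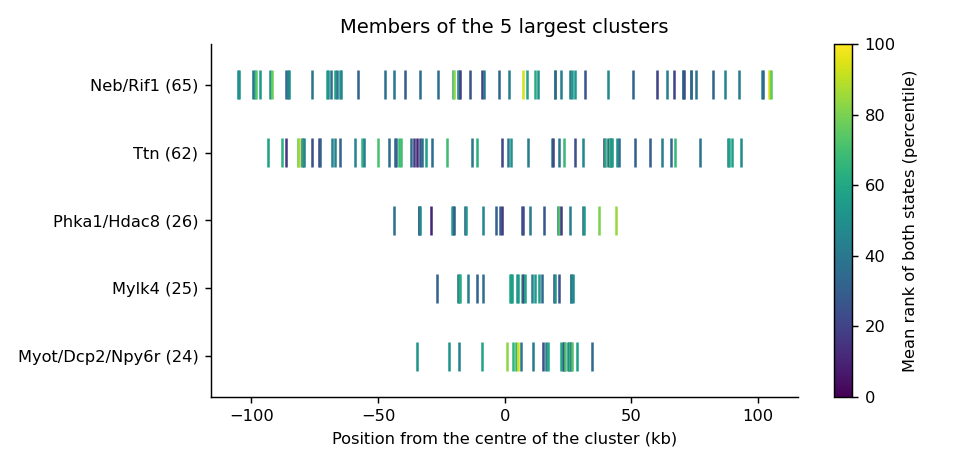
Position of each muscle-private region (vertical marks) from the centre of its cluster (x axis, kb) for the 5 clusters with most members, named by nearest genes with the number of regions, coloured by the mean rank of both states (percentile). The Neb and Ttn clusters hold 65 and 62 regions spread over 211370 and 187142 bp.

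Over the chromosomes, the private share of both-state regions was 10.1% to 13.5% on the autosomes. On the X chromosome it was 22.4% (456 of 2033), and on the Y chromosome there was 1 private region among 41.

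Genes of the muscle programme were near private regions. Each region was linked to the protein-coding gene with the nearest start, which need not be the gene it acts on. Of 21911 protein-coding genes, 5319 (24.3%) were nearest to at least 1 private region, and 8659 (39.5%) had one within 50000 bp of a start. Of 152 genes in 9 lists of muscle genes, 115 (75.7%, 68.0 to 82.2) were nearest to one, and 136 had one within 50000 bp. Of the 3177 both-state regions linked to these genes, 953 (30.0%, 28.4 to 31.6) were private, beside 12.2% of all. The same 152 genes were nearest to a region private to heart in 31 cases (20.4%, beside 8.14% of all protein-coding genes), to brown adipose in 36 (23.7% beside 14.7%), to liver in 42 (27.6% beside 25.02%), to lung in 36 (23.7% beside 22.8%), to spleen in 48 (31.6% beside 31.3%), to kidney in 49 (32.2% beside 36.0%) and to white adipose in 13 (8.55% beside 10.3%). The sizes of those sets differ, from 2763 to 22221 regions, and long genes and genes with wide surroundings collect more regions of any kind.

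Lists of genes that mark other tissues and cells were counted in the same way. The rule removes any region with a peak in another tissue. Low counts for genes of those tissues therefore follow in part from the rule and are no check of the tissue label. Of 16 heart genes 1 was nearest to a muscle-private region, of 12 liver genes 3, and of 10 genes each for white adipose 0, lung 1, brown adipose 2, spleen 2 and kidney 2. Genes of cells that muscle tissue also holds gave 6 of 10 for satellite cells, the muscle stem cells, a list that shares Pax7 and Myf5 with the myogenic list. Endothelial genes gave 5 of 10, fibro-adipogenic and tendon genes 3 of 10, and Schwann and neural genes 2 of 10. Of the both-state regions linked to satellite cell genes 12.6% were private, and to endothelial genes 10.2%, near the 12.2% of all. How far such cells contributed to the private regions was not tested.

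**Figure D4:**
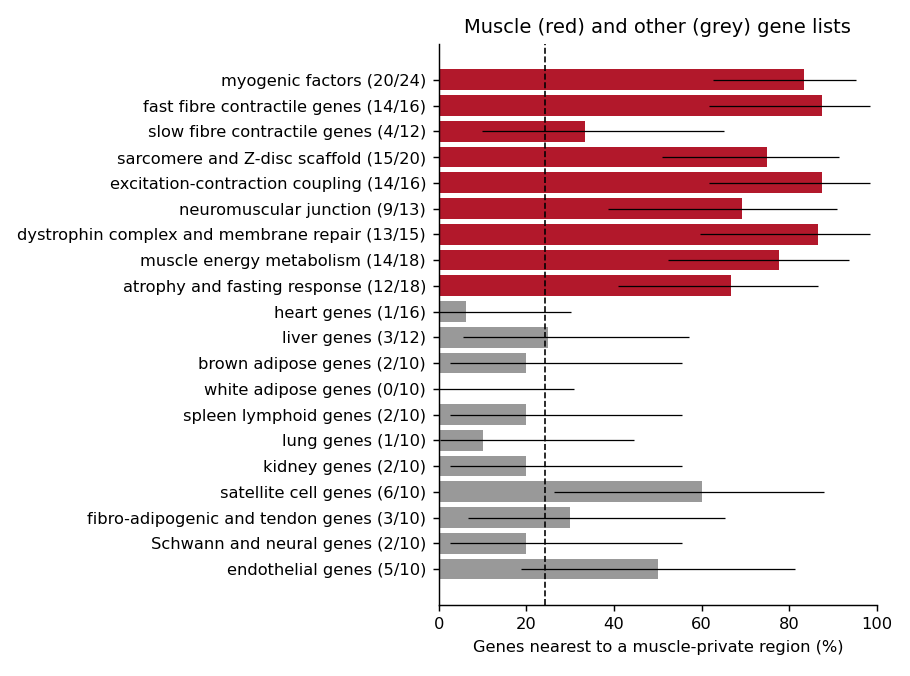
Share of genes of each list that were nearest to a muscle-private region (x axis, percent), with 95% exact intervals as error bars and counts in the labels, for 9 muscle lists (red) and 11 lists of other tissues or cells (grey). The dashed line is the 24.3% of all protein-coding genes, and 8 of the muscle lists lie at 66.7% or above, slow fibre genes at 33.3%.

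Among the myogenic factors, 20 of 24 genes had a private region and 32.8% of their 746 linked regions were private. Sox6, a repressor of the slow fibre programme, had 49 of 167, the transcriptional co-activator Eya4 had 42 of 70, Mef2c had 36 of 92 and Tbx15, a factor of fast glycolytic fibres, had 25 of 44. The strongest near Tbx15, chr3:99294244-99294616, had ranks 94.5 and 94.8. Myod1 had 8 of 15, and the strongest, 23027 bp from a start at chr7:46352884-46353824, had rank 95.9 in fed and 94.5 in fasting muscle, with 301 tags where 27.99 were expected and 459 where 47.1 were expected. Myf6 (MRF4) had 15 of 22, with ranks 95.7 and 95.6 at its strongest. Myog, Pax3, Srf and Prox1 had none, although both-state regions were linked to each.

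Fast fibre genes stood out from slow fibre genes in how many of their regions were private. Of the 16 fast fibre genes 14 had a private region, and 41.6% (34.5 to 48.9) of their 190 linked regions were private. Of the 12 slow fibre genes 4 did, with 21.2% (13.1 to 31.4) of 85 regions. Heart peaks overlapped 61.2% of the regions linked to slow fibre genes and 31.1% of those linked to fast fibre genes. Of all both-state regions heart peaks overlapped 68.2%, and 12.2% were private. The slow fibre genes were thus nearer to all regions in both shares, and the fast fibre genes further away. The rule removes any region with a heart peak, and several slow fibre genes are used in heart as well. Private regions numbered 11 near Myl1 (the fast essential light chain), 10 near Myh2 (the IIA myosin), 9 near Tnnt3 (fast troponin T), 9 near Tpm1 (alpha-tropomyosin) and 8 near Myh4. Near Pvalb, which encodes the calcium buffer parvalbumin of fast fibres, the strongest lay 122 bp from a start with ranks 94.0 and 94.8. Of the slow list, Mybpc1 (slow myosin-binding protein C) had 14 of 25, Tnni1 had 2, and Tpm3 and Myl2 had 1 each. Myh7, Tnnt1, Myl3 and Atp2a2 had none. The 1 both-state region linked to Myh7 and the 2 linked to Tnnt1 overlapped heart peaks.

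Of single genes in the muscle lists, Ttn, Neb and Trdn had the most private regions. In the sarcomere and Z-disc list 15 of 20 genes had a private region and 33.0% of 651 linked regions were private, with 67 near Ttn, 62 near Neb and 16 near Myot. The strongest near Neb lay 160 bp from a start, with ranks 94.0 and 95.4. For Actn2, Csrp3 and Tcap the number was 0. Heart peaks overlapped 27 of the 33 both-state regions linked to Actn2, and all of those linked to Csrp3 and Tcap. Among genes of excitation-contraction coupling, the step from membrane signal to calcium release, 14 of 16 had a private region and 40.7% (35.8 to 45.7) of 396 regions were private. Trdn (triadin) had 57 of 110, Jph1 (junctophilin 1, of skeletal triads) 33 of 66, Cacna2d1 (a calcium channel subunit) 21 of 46 and Ryr1 13 of 36. Jph2, a paralogue of Jph1, had 4 of 22, and heart peaks overlapped 18 of its 22 regions. The strongest near Ryr1, in an exon at chr7:29123546-29124466, had ranks 95.4 and 95.1 with 494 tags where 96.7 were expected in fed muscle.

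At the neuromuscular junction 9 of 13 genes had a private region, with 21.4% (15.01 to 28.95) of 145 regions. Musk, the receptor kinase that organises the synapse, had 20 of 32, with ranks 92.3 and 94.2 at the strongest. Chrna1, Chrne and Lrp4 (the agrin receptor) had 2 each. Rapsn and Colq had none. Of the dystrophin complex and membrane repair 13 of 15 genes had one, with 30.4% of 319 regions. Dmd (dystrophin) had 32 of 45, Dtna (dystrobrevin) 14 of 43, Dysf (dysferlin, of membrane repair) 10 of 65 and Dag1 (dystroglycan) 8 of 22.

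Of the energy metabolism genes 14 of 18 had a private region, with 26.2% (20.9 to 32.0) of 256 regions. Phka1 had 23 of 29, Ampd1 had 8 of 14, the nuclear receptor gene Esrrg had 6 of 47 and Ppargc1a, the mitochondrial co-activator, 5 of 38. The shares at Esrrg and Ppargc1a were near the 12.2% of all both-state regions. Ckm (muscle creatine kinase) had 3 of 7, Mb (myoglobin) 0 of 15 and Slc2a4 (the insulin-responsive glucose transporter) 0 of 4. Heart peaks overlapped all 15 regions linked to Mb and 3 of the 4 linked to Slc2a4, and the rule removes such regions.

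The list of atrophy and fasting response genes had 12 of 18 genes with a private region, but 10.3% (7.45 to 13.7) of its 389 linked regions were private, which is not above the 12.2% of all. Private regions numbered 8 near Irs2 (an insulin receptor substrate), 5 near Mstn (myostatin), 5 near Pdk4 (the kinase that restrains pyruvate dehydrogenase) and 4 near Foxo1. Of the list's 40 private regions 47.5% ranked higher in fasting, with a median change of -0.46 points. Single regions differed more. The strongest near Angptl4, an inhibitor of lipoprotein lipase, had rank 57.2 in fed and 89.9 in fasting muscle, with 35 tags where 10.3 were expected and 237 where 22.0 were expected. Near Cebpd the ranks were 14.5 and 82.4. Near the ubiquitin ligase genes Fbxo32 and Trim63 (MuRF1) they were 66.5 and 80.3, and 74.7 and 85.2. Fold enrichment in fed and fasting muscle differed less there, at 2.62 and 3.19 near Fbxo32 and 2.35 and 2.64 near Trim63. The ranks were 66.8 and 65.95 near Pdk4, and 88.5 and 84.3 near Mstn, so the list as a whole had no common direction. The part of region width and library depth in these changes was not tested.

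In the other lists the share of private regions that ranked higher in fasting ran from 32.8% for energy metabolism to 54.8% for the neuromuscular junction, with 35.4% for fast fibre genes and 36.0% for excitation-contraction coupling. Over all muscle lists it was 40.2%, beside 43.6% of all private regions.

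Without regard to lists, private regions were unevenly spread over genes. Of the 5319 genes 2520 had 1, while 200 genes with 10 or more held 3223 regions (21.9%). Rbfox1 had most, 77 of 136 linked both-state regions. Kcnma1 had 58 of 115, Pde4d (a cyclic AMP phosphodiesterase) 50 of 220, Rora (a nuclear receptor of the clock) 50 of 160 and Mylk4 31 of 63. These genes were in none of the lists and were picked after their values were seen.

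The sequence of the private regions was searched for motifs within 100 bp of the summit, on both strands. CAGCTG was present in 2777 private regions (18.9%, 18.3 to 19.6) and in 19.5% of all both-state regions, so over all regions its share did not stand above the background. Among the 8 sets private to a tissue it was nevertheless the highest, with spleen next at 15.7% and heart at 14.8%. Its share moved with base composition. Where GC content was above 55%, 33.2% (30.7 to 35.8) of private and 22.1% (21.7 to 22.6) of shared regions held it, and at GC up to 40% 8.13% and 8.02% did. In the classes between, from low to high GC, the shares were 13.5% and 12.1%, 18.1% and 16.7%, and 24.3% and 22.3%, with overlapping intervals except in the last of these. Within 3000 bp of a start 19.5% (18.1 to 20.99) of private and 17.0% (16.6 to 17.4) of shared regions held it, and beyond that 18.7% (18.04 to 19.5) and 21.3% (20.97 to 21.6). Matches gathered at the summit, with 29.2 per 1000 private regions in the central 20 bp bin against 9.26 to 11.3 in the outermost bins. Shared regions did likewise, with 26.1 in the central bin against 11.7 to 12.3 in the outermost ones.

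MEF2 matches set muscle and heart apart from the other tissues. They were present in 1172 private regions (7.98%, 7.55 to 8.43), beside 4.25% of all both-state regions and 3.73% (3.61 to 3.84) of shared ones. The set private to heart had 8.58% (7.56 to 9.68). The other 6 tissues had 1.22% (spleen) to 3.01% (kidney). The mean of muscle and heart was 8.28% against 1.96%, a difference of 6.32 percentage points, and both lay above each of the other 6. In an exact permutation test over the 28 ways to choose 2 of 8 tissues, one-sided, p = 0.0357, which is the smallest p this design allows. The intervals of muscle and heart overlapped.

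**Figure D5:**
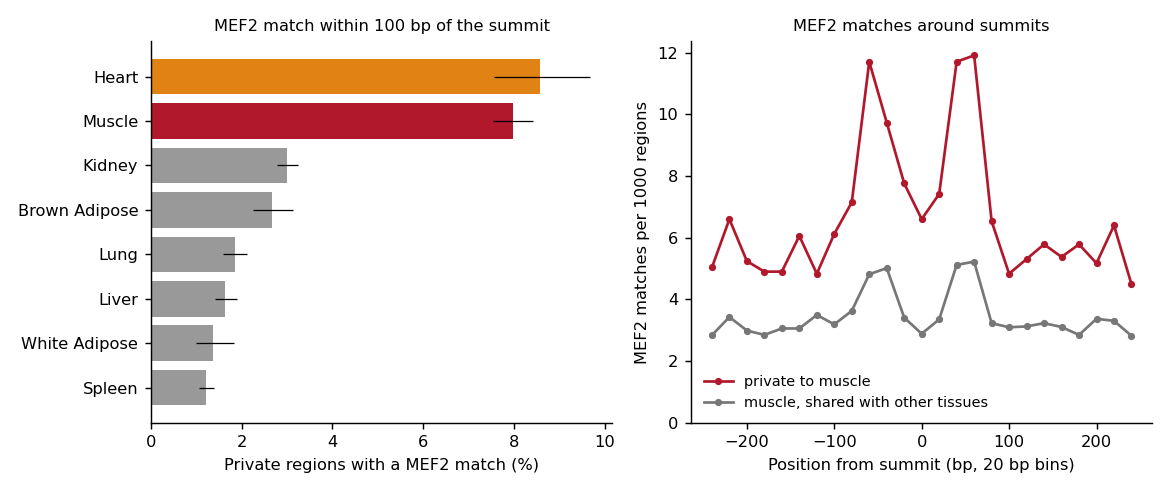
Left, share of tissue-private regions with a MEF2 match within 100 bp of the summit (x axis, percent) by tissue, with 95% exact intervals. Right, MEF2 matches per 1000 regions (y axis) by position from the summit (x axis, bp, in 20 bp bins) for muscle-private and shared muscle regions. Muscle and heart stand at 7.98% and 8.58%, and matches peak on both sides of the summit at about 60 bp.

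MEF2 matches were most frequent beside rather than at the summit. In private regions there were 11.7 matches per 1000 regions in the bin at -60 bp, 6.61 at the summit and 11.9 at 60 bp, and shared regions had 4.82, 2.89 and 5.23. The share of private regions with a match was higher at higher fed rank, from 5.203% at ranks up to 25 to 13.9% (11.04 to 17.13) between ranks 90 and 95, and was 10.5% (5.16 to 18.5) in the 95 regions above. Shared regions had 1.87% and 6.97% in the first and second of these ranks, and 3.05% above. The motif is rich in A and T, and its share moved with GC content. At GC up to 40% it was 21.6% (19.5 to 23.9) in private and 15.4% (14.1 to 16.9) in shared regions, at 45% to 50% it was 6.58% (5.91 to 7.30) and 5.42% (5.14 to 5.72), and at 50% to 55% 2.53% (2.03 to 3.11) and 2.71% (2.53 to 2.90), where the intervals overlap. Away from starts, beyond 3000 bp, 8.16% of private and 4.50% of shared regions held it, and within 3000 bp 7.30% and 2.53%. How much of the difference between private and shared regions goes with base composition was not tested beyond these classes.

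CAGCTG and MEF2 were seldom together. A total of 155 private regions (1.06%) held both, 2622 only CAGCTG, 1017 only MEF2, and 10891 (74.2%) neither.

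Of other motifs, the general E-box CANNTG was in 76.5% of private and 68.1% of shared regions. CTCF, the insulator motif, was in 16 private regions (0.109%) and in 4.21% of shared regions, and CCGGAAG, of ETS factors common at promoters, in 0.797% and 3.29%. Both were also rare in the private sets of the other 7 tissues, at 0.0734% to 0.266% and 0.624% to 1.38%. The share of CATTCC was 11.7% in private and 11.3% in shared regions, of CArG 0.94% and 0.922%, of TGANTCA 8.57% and 8.18%, and of TGTGGT, the RUNX motif, 14.4% and 13.8%. The estrogen-related receptor motif TCAAGGTCA was in 0.483% and 0.467%, GTAAACA, of forkhead factors, in 3.12% and 2.80%, and the glucocorticoid response element (GRE) in 1.31% and 1.21%. The NFI palindrome was in 2 private regions. A match is a stretch of letters and not evidence that a factor was bound.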

How the data were processed

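The peak lists of 16 ATAC-seq libraries were the only data analysed. The methods give alignment with Bowtie2, removal of unmapped and duplicate reads, and peak calling with MACS2, and the labels give GRCm38. By the names of the deposited lists, the authors also removed mitochondrial reads, shifted ends for Tn5 and kept the 300000 rows of smallest p-value before filtering. Both muscle lists stopped at that limit, and the fasting one stopped above the q threshold used here. Several lists of other tissues also stopped above it. Versions are not given in the sources used here. Deposited fold values are a ratio, summit tags plus 1 to expected tags plus 1, and the deposited -log10 p-value and q-value are from the authors' test within a library. The deposited summit position is an offset.

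Rows with identical coordinates were merged into 1 region with their smallest p. Starts are printed counted from 1. A fed region was matched to the overlapping fasting region of smallest p, and ranks are percentiles of p within a list. Tags were solved from fold and p (tolerance 0.001), which gave a whole number in 98.4% of fed and 95.4% of fasting muscle regions; background tags are the lowest common expected number, a measure of depth. Annotation was GENCODE vM21 (132629 distinct starts); sequence was RefSeq's GRCm38.p6 genome. All peaks ended inside its chromosomes.

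The regions and gene lists were chosen with earlier results of these data known. Named were the 10 strongest regions by mean rank, the 5 largest rises and falls, the 5 clusters with most regions, and in each muscle list the 4 genes with most regions, ties by the strongest region; some of these, and 1 motif, are not reported here. Other genes named in a list were chosen after their values were seen. Exact Clopper-Pearson intervals (95%) cover counting error only. The only test was the permutation test over tissues. Scripts (run in Python 3.11.15 with scipy 1.17.1 for intervals, pandas 2.3.3 and numpy 2.4.6 for tables and matplotlib 3.10.9 for plots) were tested on simulated data.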

Additional observations from a re-analysis of the deposited data

How the results depend on the processing

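No paired analysis was possible because each tissue and state had 1 library. The choice of settings moved the size of the set most. With -log10 q of at least 6 in both muscle lists there were 7392 private regions, of which 24.6% lay next to another, 36.7% ranked higher in fasting and 20.5% held CAGCTG. Among the 50000 strongest regions of both lists there were 2803, with 18.2%, 41.7% and 22.3%, and 73 of the muscle list genes had one. With regions taken from the fasting list, 25.8% lay next to another and 36.2% ranked higher in fasting. With overlap by 50% of both lengths these were 20.7% and 37.5%. Where only peaks of q under 0.01 in other tissues excluded a region, 30.0% lay next to another. Ranked by fold, 46.9% ranked higher in fasting; among regions of like width, a setting chosen after seeing the data, 37.5% did, and ranking among both-state regions only, also chosen then, gave 43.6%. Within 1000 bp of a start lay 8.31%, and within 3000 bp of a protein-coding start 14.8%. CAGCTG was in 11.8% within 50 bp and 30.7% within 250 bp of the summit.

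Leaving out each other tissue in turn gave 15685 to 19903 private regions, the highest without heart, with 20.7% to 21.5% near a start and 27.6% to 34.1% next to another. For MEF2 the private sets were kept unchanged, and the left-out tissue was dropped from the comparison only. The MEF2 difference was 6.02 to 6.53 percentage points. It was 3.08 for matches within 50 bp of the summit, 7.73 within 250 bp, 10.5 with -log10 q of at least 6 and 12.004 among the 50000 strongest regions. Without heart it was 6.02 with p = 0.143 (exact permutation, one-sided), the smallest p that 7 tissues allow for 1 against the rest; under every other setting run p was 0.0357 or 0.0476. The share ranked higher in fasting was below 50% under all settings run.

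A region absent from another tissue was not detected at that library's depth and list length, which is not the same as closed.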
